A study of Mus musculus with 12 samples.

Results

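Replicates 2 and 3 of the BxPC-3 tumors treated with arsenic trioxide (ATO) are described here beside ATO replicate 1, control replicate 1 and control replicate 2 of the same line. These are 2 of the 12 libraries of the series, set beside 3 others. The split was seen in the RNA profiles themselves and was not designed: both sides hold ATO tumors, and nothing in the labels separates ATO replicates 2 and 3 from ATO replicate 1. The gene values that show the split also chose it, so they are given as a description and carry no test.

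The tumors grew in the pancreas of mice grafted with BxPC-3 or AsPC-1 cells, both established lines of human pancreatic ductal adenocarcinoma. Each line has 3 ATO and 3 control libraries. All carry the genotype label WT, and the organism is labelled as mouse although the gene identifiers are human. No source used here gives the dose, the schedule, the treatment of the controls or the age and strain of the mice. Whether each replicate is its own animal is likewise not stated, so a p-value here reflects the variation among these libraries, which may be technical. The library labelled BxPC-3 control 3 was left out: across 23445 genes its log2(FPKM + 1) values correlated at r = 0.961 to 0.98 with the AsPC-1 libraries and at r = 0.796 to 0.821 with the other 5 BxPC-3 libraries.

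ATO binds thiol groups of proteins and raises oxidative stress, and it is used against acute promyelocytic leukemia. A xenograft tumor holds human cancer cells together with mouse fibroblasts, vessels and immune cells, and its RNA also reflects how much of the tissue is poorly supplied with oxygen, how many cells divide and how well the RNA was kept. Genes that are read mainly in dividing cells rise and fall with the phases of the cell cycle. When RNA or a library differs in quality, short and long transcripts often shift against each other. The tables give human gene identifiers and no names, and 0 of them matched the 55450 mouse identifiers with names at hand. Marker genes of stroma, hypoxia and stress, and those that would check the labelled tissue, were therefore not analysed here. Identifier lists for the cell cycle and the lengths of the genes could be.

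Values are FPKM, which are reads of a gene divided by its length and by a constant of the library. A gene was kept if it had at least 1 FPKM in 3 or more of the 5 libraries, which left 14633 of 27457 genes. The reads behind these values summed to 15386411 and 19001674 in ATO replicates 2 and 3, and to 18303138 in ATO replicate 1, 16093521 in control replicate 1 and 19306887 in control replicate 2. Depth thus did not separate the 2 libraries from the other 3.

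ATO replicates 2 and 3 resembled each other about as closely as the other 3 libraries resembled each other, and both lay further from those 3. Across the 14633 genes, which are not independent replicates, log2(FPKM + 1) correlated at r = 0.969 between ATO replicates 2 and 3. It correlated at r = 0.964 to 0.972 among ATO replicate 1, control 1 and control 2, and at r = 0.92 to 0.954 across the split. Over genes of 1200 bases or more the values were 0.982 within the pair, 0.975 to 0.986 within the other 3 and 0.941 to 0.965 across. The gene-wise range of log2(FPKM + 1) had a median of 0.162 between ATO replicates 2 and 3 and 0.149 between control replicates 1 and 2. Over 3 libraries, where a range is wider by its definition, the median was 0.411 for the 3 ATO libraries. It was 0.292 for ATO replicate 1, control 1 and control 2.

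The split was also a gradient. The first principal component held 55.7% of the variation between the 5 libraries and the second 17.2%. On the first, ATO replicate 2 lay at 35.3 and ATO replicate 3 at 24.7, against -28.1 for ATO replicate 1, -20.9 for control replicate 1 and -11.1 for control replicate 2. Among the 3 libraries on the other side, control replicate 2 was nearest to the pair and ATO replicate 1, which had the same treatment label as the pair, was farthest from it. Quantile normalization, which gives every library the same distribution of values, and rescaling with the recovered reads kept this order.

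**Figure D1:**
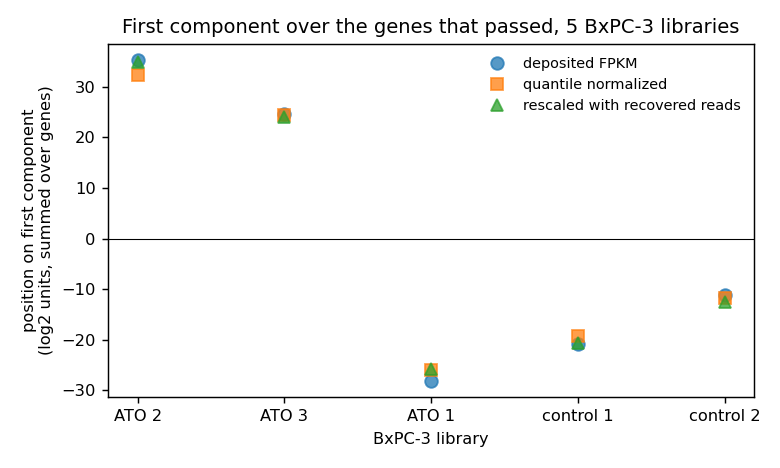
Position of each of the 5 BxPC-3 libraries (horizontal axis) on the first component of log2(FPKM + 1) over 14633 genes (vertical axis), on 3 scales shown by symbol. ATO replicates 2 and 3 lie at 35.3 and 24.7 on the deposited scale, and the other 3 libraries lie between -28.1 and -11.1.

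Few genes were far apart, and most of those were lower in ATO replicates 2 and 3. The gap of a gene is the distance on log2(FPKM + 1) between the nearest libraries of the 2 sides, so that no mean is taken over libraries grouped by their values. With a gap of at least 1, 8 of 14633 genes (0.0547%) were higher in ATO replicates 2 and 3 and 68 (0.465%) were lower. The largest gaps were 1.3 for a higher and 2.44 for a lower gene. The threshold did not fall at a break: the last genes inside it had gaps of 1.02 (higher) and 1.01 (lower), and the first outside had 0.949 and 0.997. The 68 lower genes held 1.09% and 1.19% of the reads in ATO replicates 2 and 3, against 2.6% in ATO replicate 1, 3.07% in control replicate 1 and 2.53% in control replicate 2. Their median FPKM was 1.76 and 1.94 in ATO replicates 2 and 3, against 8.13, 8.42 and 7.89 in ATO replicate 1, control 1 and control 2. Of these 68, 19 reached 1 FPKM in the 3 other libraries and in neither ATO replicate 2 nor 3, so they passed the filter through the side where they were high. The 8 higher genes had median levels of 21.8 and 21.4 FPKM in ATO replicates 2 and 3, against 7.45 in ATO replicate 1, 8.51 in control replicate 1 and 9.41 in control replicate 2.

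With any gap above 0, 2754 genes (18.8%) were higher in ATO replicates 2 and 3 than in all 3 others and 4275 (29.2%) were lower. Of the 4275 lower genes 467 passed the filter only through the other 3 libraries. They stay in this class in the counts by length, and in those of AsPC-1 where tested. For the 2754 higher genes this could not occur, since they reach 1 FPKM in the pair wherever the others do. Nor could a gene pass through the pair alone, since the filter needs 3 libraries. Which direction held more genes depended on the scale: higher genes made up 39.2% of those apart with the FPKM as deposited, 55.8% once quantile normalized and 53.8% after rescaling with the recovered reads. With a gap of at least 1 lower genes were the larger class on each of these scales, with 10 higher and 49 lower after quantile normalization and 10 higher and 58 lower with the recovered reads. The 8 higher genes of the deposited scale were among the 10 on both other scales, and the 49 and 58 lower genes were all among the 68.

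The 2 genes with the largest gap in each direction, at a mean of at least 5 FPKM, show the size of the split in single libraries. ENSG00000167656, a gene model of 1553 bases, had 61.4 and 78.9 FPKM in ATO replicates 2 and 3, against 24.3 in ATO replicate 1, 21.4 in control replicate 1 and 16.1 in control replicate 2. It rested on 2021 and 3200 reads in the pair and on 631 to 872 in the others, and the nearest values of the 2 sides differed 2.53-fold. In all the genes shown here the pair and the other 3 libraries do not overlap, which follows from their choice by gap.

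ENSG00000167779, of 1279 bases, had 77.4 and 85.6 FPKM in ATO replicates 2 and 3, against 27.4 in ATO replicate 1, 31.4 in control replicate 1 and 28.0 in control replicate 2. The nearest values differed 2.47-fold, and the 3 lower libraries lay close together.

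ENSG00000115602, of 5746 bases, was the most separated gene among the lower ones. It had 7.22 and 6.55 FPKM in ATO replicates 2 and 3, against 50.2 in ATO replicate 1, 43.6 in control replicate 1 and 70.8 in control replicate 2. These values came from 879 and 983 reads in the pair and 4774 to 10240 in the others, and the nearest values of the 2 sides differed 6.04-fold. ATO replicate 1 lay between the 2 control libraries.

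ENSG00000160182, of 551 bases, had 7.97 and 7.51 FPKM in ATO replicates 2 and 3, against 40.2 in ATO replicate 1, 76.8 in control replicate 1 and 71.2 in control replicate 2. The nearest values differed 5.05-fold. Here ATO replicate 1 lay below both controls and still well above the pair.

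**Figure D2:**
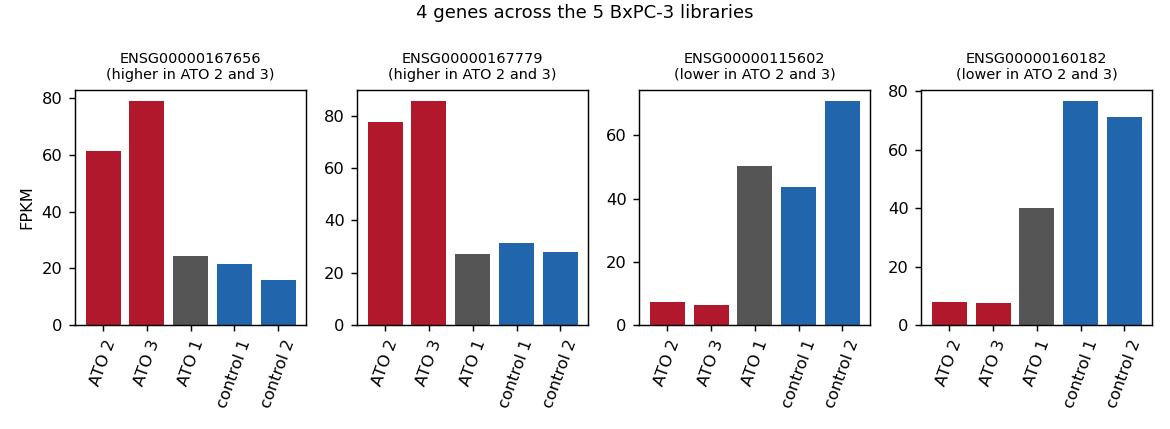
FPKM (vertical axes, from 0) of the 2 genes with the largest gap in each direction in each BxPC-3 library, with red bars for ATO replicates 2 and 3, grey for ATO replicate 1 and blue for the controls. By the choice of the genes, both red bars lie on one side of the other 3 in each of the 4. The nearest bars of the sides differ 2.47-fold to 6.04-fold.

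The labelled comparison, ATO against control over these 5 libraries, holds libraries from both sides of the split among its ATO tumors. In limma with Benjamini-Hochberg adjustment no gene of 14633 reached an adjusted p of 0.05 (0.0%), while 758 genes lay under an unadjusted p of 0.05, 381 of them higher (2.6%) and 377 lower (2.58%). Voom on the recovered reads also gave 0, and 917 genes lay under that unadjusted p. Without ATO replicate 1, which leaves the pair against the 2 controls, 6 genes passed, 1 higher and 5 lower, and 3262 had an unadjusted p under 0.05. That last fit uses the same libraries as the split and is a description of it. ENSG00000160182 had a limma adjusted p of 0.883 over the 5 libraries, at a difference of -2.35 on the log2 scale (SE 0.694).

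Proliferation was read from lists of human identifiers that mark 1 phase of the cell cycle, taken from the gene pairs that scran, an R package, ships for phase calling. G1 is the phase before DNA replication, S the phase of replication and G2M the phase that leads through mitosis. No list had medians that set ATO replicates 2 and 3 apart from the other 3 libraries on each of the 3 scales. Of 45 genes of the G2M list 40 passed the filter, and 7 were apart and higher and 8 apart and lower with any gap, beside 18.8% and 29.2% of all genes. The largest gap among them was 0.361. The G2M median deviation from the 5-library mean was 0.0503 and -0.0505 in ATO replicates 2 and 3, against 0.0521 in ATO replicate 1, 0.0563 in control replicate 1 and -0.0334 in control replicate 2, so the pair lay on both sides of 0. On the recovered reads, 11 G2M genes were apart and higher and 4 apart and lower, beside 26.4% and 22.6% of all genes on that scale. The medians there were 0.0906 and 0.0119 in the pair and -0.0645 to 0.0358 in the other 3.

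Of the 34 genes of the S list 25 passed, with 3 apart and higher and 9 apart and lower, beside 18.8% and 29.2% of all genes. The S medians were -0.0293 and -0.0806 in ATO replicates 2 and 3, against 0.0585, 0.0371 and -0.0102 in ATO replicate 1, control 1 and control 2. On this scale both libraries of the pair lay below the other 3, beside medians over all genes of -0.0268 and -0.0415 in the pair and 0.0725, 0.0218 and -0.0106 in the others. On the recovered reads the S medians of the pair, 0.0093 and -0.0121, lay among those of the other 3 (-0.0644 to 0.0217).

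Of the 23 genes of the G1 list 20 passed, with 7 apart and higher and 6 apart and lower, beside 18.8% and 29.2% of all genes. The G1 medians were -0.00124 and 0.124 in ATO replicates 2 and 3, against -0.111 in ATO replicate 1, -0.0268 in control replicate 1 and 0.0148 in control replicate 2. The highest and the lowest value were both in ATO libraries, and control replicate 2 lay between the 2 libraries of the pair. After quantile normalization the pair, at 0.0316 and 0.159, lay above the other 3 (-0.11 to 0.0151). On that scale 9 G1 genes were apart and higher and 4 apart and lower, beside 26.9% and 21.3% of all genes. On the recovered reads they numbered 10 and 4, beside 26.4% and 22.6%. The G1 medians of the pair were then 0.0454 and 0.199, against -0.248 to 0.0491 in the others. Only 1 gene of the 3 lists, in G1, was apart by at least 1, with a gap of 1.51 towards lower.

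The marker pairs need no scaling between libraries, since each compares 2 genes within a library. Over 19591 G2M pairs the first gene exceeded the second in 46.4% and 47.4% of pairs in ATO replicates 2 and 3, against 45.8% in ATO replicate 1, 48.7% in control replicate 1 and 47.1% in control replicate 2. For 27833 S pairs the values were 47.1% and 46.6% in the pair and 48.8%, 46.4% and 47.6% in the others. For G1, over 22508 pairs, they were 53.7% and 52.7% against 52.5%, 52.6% and 52.8%. The ranges of the 2 sides overlapped in each phase.

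**Figure D3:**
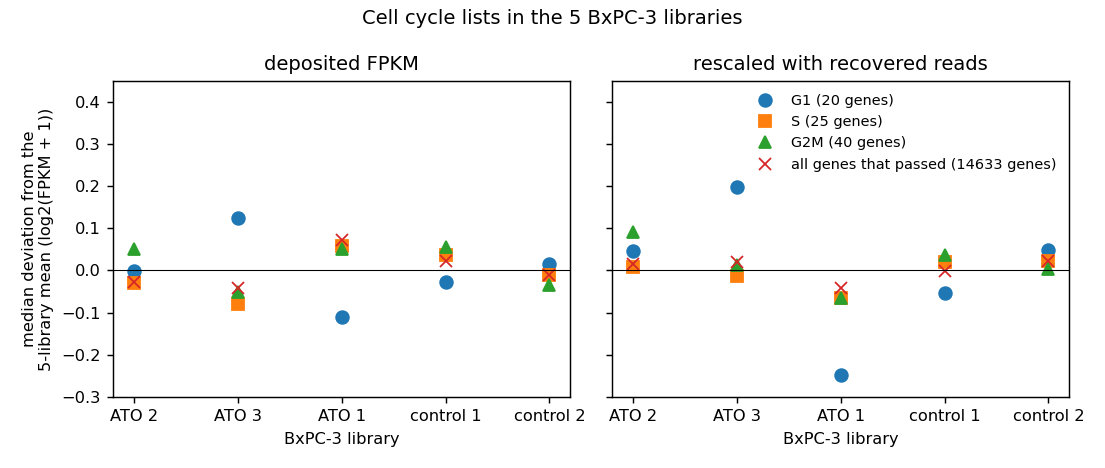
Median deviation of each cell cycle list from its 5-library mean on log2(FPKM + 1) (vertical axis) in each BxPC-3 library, on the deposited scale (left) and after rescaling with the recovered reads (right). For G2M on the left, ATO replicate 2 lies at 0.0503, inside the range of -0.0334 to 0.0563 of the other 3 libraries, and ATO replicate 3 at -0.0505, below it.

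Gene length moved with the split. Short genes were low in ATO replicates 2 and 3 and high in ATO replicate 1. Over 1084 genes under 300 bases the median deviation was -0.347 in ATO replicate 2 and -0.138 in ATO replicate 3, against 0.345 in ATO replicate 1, 0.223 in control replicate 1 and -0.000724 in control replicate 2. Among these genes 364 (33.6%) were apart and lower with any gap, beside 29.2% of all genes. Apart and higher were 52 (4.8%), beside 18.8% of all genes. Genes of 300 to under 1200 bases behaved likewise, with medians of -0.173 and -0.139 in the pair, 0.23 in ATO replicate 1, 0.131 in control replicate 1 and -0.0233 in control replicate 2.

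Genes of 1200 bases or more, 11620 in all, had medians within 0.05 of 0 in each library on the deposited scale (-0.00434 and -0.0275 in the pair, 0.0418, 0.00605 and -0.00931 in the others). Of these genes 2559 (22.0%) were apart and higher and 3192 (27.5%) apart and lower, beside 18.8% and 29.2% of all genes. After rescaling with the recovered reads 3574 (30.8%) were higher and 2347 (20.2%) lower, beside 26.4% and 22.6% of all genes. Among long genes the larger direction thus depended on the scale. Short genes kept their direction on each scale. After quantile normalization 294 (27.1%) were apart and lower and 76 (7.01%) apart and higher, beside 21.3% and 26.9% of all genes. With the recovered reads 323 (29.8%) were lower and 65 (6.0%) higher, beside 22.6% and 26.4%. Of the 68 genes apart and lower by at least 1, 18 (26.5%) were under 300 bases, beside 7.41% of all genes that passed, and their median length was 850.5 bases, beside 3934 bases. The other 50 were 300 bases or longer, and 30 were of 1200 bases or more. Of the 68, 19 passed the filter only through the 3 libraries outside the pair. The part of these 19 in the shares by length was not tested.

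**Figure D4:**
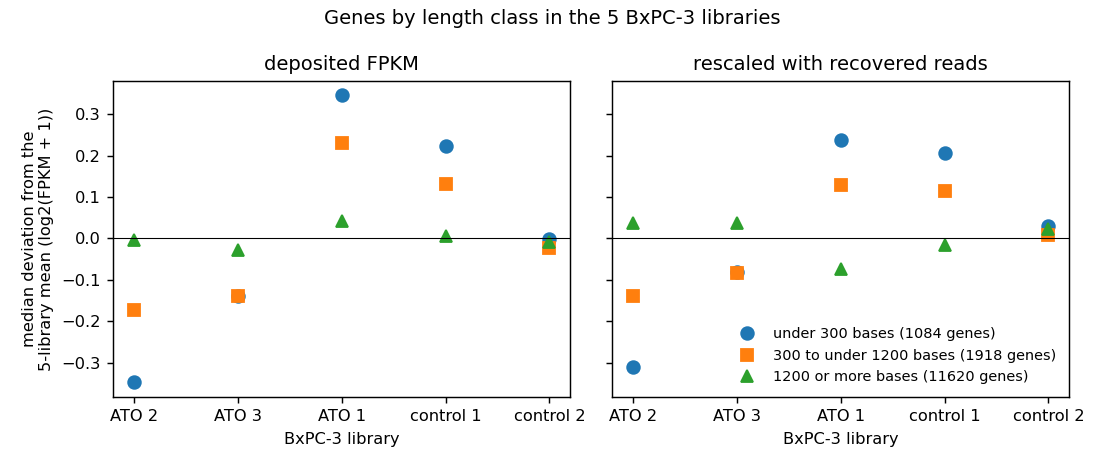
Median deviation from the 5-library mean on log2(FPKM + 1) (vertical axis) of genes under 300 bases, of 300 to under 1200 bases and of 1200 bases or more, in each BxPC-3 library, on the deposited scale (left) and after rescaling with the recovered reads (right). Genes under 300 bases lie at -0.347 and -0.138 in ATO replicates 2 and 3, and between -0.000724 and 0.345 in the other 3 libraries on the left.

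The make-up of the libraries moved along too. Genes under 300 bases held 0.482% and 0.574% of the reads in ATO replicates 2 and 3, against 0.923% in ATO replicate 1, 1.14% in control replicate 1 and 0.775% in control replicate 2. The 20 genes most abundant in the AsPC-1 libraries, a choice that did not use the BxPC-3 values, held 12.3% and 11.8% of the reads in the pair, against 18.7% in ATO replicate 1, 24.4% in control replicate 1 and 16.3% in control replicate 2. The recovered reads came to 72.6% and 72.8% of the library constant in the pair, against 79.3%, 84.5% and 76.7%. What this ratio measures is not known, since it came to 105% to 118% in the AsPC-1 ATO libraries. Genes of at least 1 FPKM numbered 14048 and 14129 in the pair, against 15759, 15061 and 14468 in the others. In each of these 4 measures both libraries of the pair lay below the other 3, and control replicate 2 was the nearest of those 3. Other measures did not separate the pair. Genes with any read numbered 26045 and 26618 in the pair, against 26916, 26534 and 26624 in ATO replicate 1, control 1 and control 2. Genes of 300 to under 1200 bases held 7.37% and 6.03% of the reads in the pair, against 8.12%, 11% and 7.28% in the same 3 libraries. The part of transcript length and of library make-up in the gene differences was not tested.

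The AsPC-1 libraries took no part in the split and give an independent reading of the same genes under the labelled treatment. Genes that were lower in the BxPC-3 pair tended to be higher in AsPC-1 tumors with ATO than in AsPC-1 controls. Of the 68 genes apart and lower by at least 1, 49 were tested in AsPC-1, and 24 of these were higher with ATO at an unadjusted p under 0.05 in limma and 0 lower. Over the 12436 genes that passed in both lines the shares were 13.4% higher and 6.84% lower, and over all 15287 genes tested in AsPC-1 they were 15% and 6.02%. After quantile normalization 21 of the 49 were higher and 0 lower, beside 9.28% and 11.1% of genes tested in both lines. With voom on the recovered reads 19 of 44 were higher and 2 lower, beside 8.11% and 16.9%. Without AsPC-1 ATO replicate 1, 24 of 49 were higher and 2 lower, beside 22.0% and 11.7%. The part of genes that passed the filter only through the 3 BxPC-3 libraries outside the pair was not tested. The median log2 fold change of the 49 genes was 0.592, beside 0.0889 over the 12436. At an adjusted p of 0.05 limma called no AsPC-1 gene (0.0% of 15287, beside 3210 under an unadjusted p of 0.05), and voom on the recovered reads called 19. A limma fit with a replicate block, which groups same-numbered ATO and control libraries, called 1193. The calls given for these sets come from the fit without a block and are therefore unadjusted. The ratio of the recovered reads to the library constant also differed between the AsPC-1 groups. It came to 105%, 118% and 112% in ATO replicates 1 to 3, against 86.3%, 88.0% and 88.7% in control replicates 1 to 3. With values of this size the ratio cannot be read as a plain share of the reads of a library. What the ratio measures is therefore not known. In BxPC-3 this ratio was lowest in the pair, and its part in the AsPC-1 differences was not tested.

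Both directions of the any-gap classes showed this. Of 3643 tested genes apart and lower, 977 (26.8%) were higher with ATO in AsPC-1 at an unadjusted p under 0.05 and 69 (1.89%) lower, with a median log2 fold change of 0.306. Of 2363 tested genes apart and higher, 49 (2.07%) were higher and 338 (14.3%) lower, with a median of -0.137. Scaling moved the median of all 12436 genes to -0.0483 after quantile normalization, where the 2 classes had medians of 0.166 and -0.265. With voom on the recovered reads, over those of these genes it tested, it was -0.0981, and the classes stood at 0.173 and -0.371. The median of each class thus kept its sign, and its place above or below all genes, on the 3 scales. The shares moved with the scale. After quantile normalization 19.7% of the lower class were higher and 3.43% lower, and 1.23% and 23.0% of the higher class. All genes tested in both lines then stood at 9.28% and 11.1%. With voom the shares were 18.3% and 5.59% of the lower class and 0.804% and 32.8% of the higher class, beside 8.11% and 16.9%. The counts also leaned on single libraries, as fits on the deposited scale show. Without ATO replicate 2, 396 genes (11.1%) of the lower class were higher in AsPC-1 ATO, beside 5.3% of all genes tested in both lines, and 86 (3.67%) of the higher class were lower, beside 1.84%. Without control replicate 1 the counts were 494 (13.6%), beside 6.77%, and 155 (6.61%), beside 3.42%. Without ATO replicate 3 they were 526 (14.7%), beside 6.86%, and 106 (4.53%), beside 2.48%. Without ATO replicate 1 they were larger, at 1418 (39.4%), beside 22.0%, and 511 (21.7%), beside 11.7%.

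The contrast differed between length classes. Of 20 tested genes of 1200 bases or more that were apart and lower by at least 1, 11 were higher with ATO in AsPC-1 at an unadjusted p under 0.05 and 0 lower, beside 10.5% and 7.28% of the 10181 long genes. Their median log2 fold change was 0.618, beside 0.052. For the 15 such genes under 300 bases the median was 1.31, beside 0.395 over 823 genes of that length, with 9 higher and 0 lower, beside 25.9% and 3.52% of all genes of that length. Among genes of 300 to under 1200 bases the share was near that of all genes: 4 of 14 (28.6%) were higher and 0 lower, beside 26.8% and 5.69% of 1424. Their median was 0.446 beside 0.284 on the deposited scale, and with voom on the recovered reads it was 0.0983, below the 0.2 of all genes of that length.

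AsPC-1 libraries differed among themselves on these genes. The 49 genes had median deviations of 0.0944, 0.556 and 0.26 in ATO replicates 1 to 3, against -0.644, -0.0418 and -0.257 in control replicates 1 to 3. The ATO libraries all lay above the controls, with ATO replicate 2 and control replicate 1 at the ends and ATO replicate 1 near control replicate 2. For the 20 of these genes of 1200 bases or more the groups overlapped after quantile normalization. ATO replicate 3 then lay at 0.043, below control replicate 2 at 0.0559. Over all genes passed in both lines the medians were -0.0283, 0.109 and 0.0728 in the ATO libraries, against -0.109, -0.0122 and -0.0173 in the controls. Without control replicate 1 the count among the 49 was 15 and without ATO replicate 2 it was 13 of 48, beside 6.77% and 5.3% of all genes passed in both lines.

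**Figure D5:**
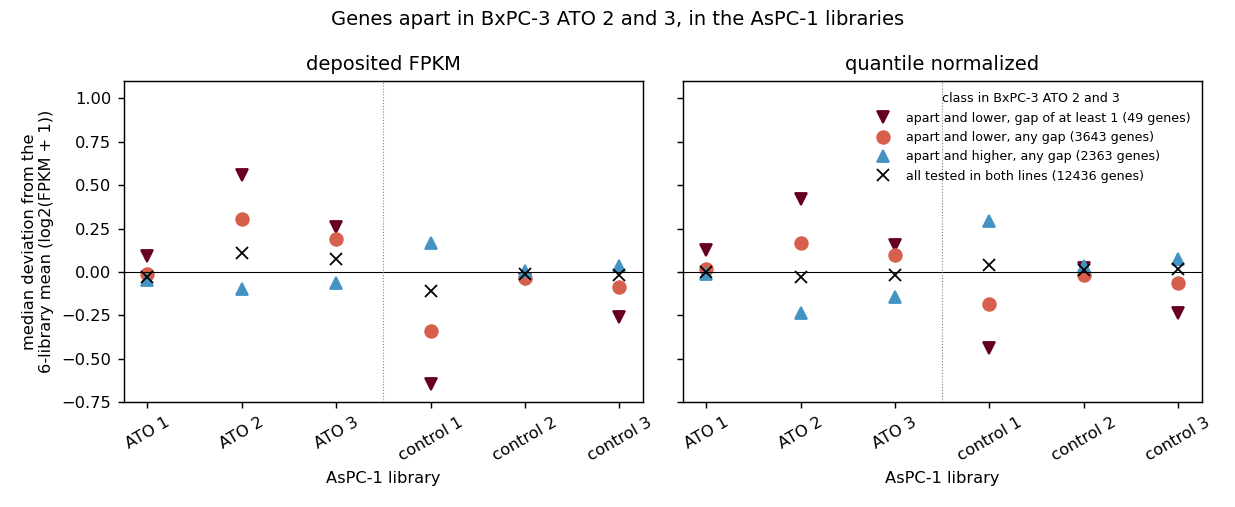
Median deviation from the 6-library mean on log2(FPKM + 1) (vertical axis) in each AsPC-1 library of genes classed by their gap in BxPC-3, on the deposited scale (left) and after quantile normalization (right). On the left the 49 genes apart and lower by at least 1 lie at 0.0944 to 0.556 in the ATO libraries and at -0.644 to -0.0418 in the controls.

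For the cell cycle lists the same AsPC-1 test gave medians of -0.273 over 21 G1 genes, 0.163 over 25 S genes and 0.0899 over 40 G2M genes, beside 0.123 over all 15287. At an unadjusted p under 0.05, 0 G1 genes were higher and 7 lower, 3 S genes were higher and 0 lower, and 2 G2M genes were higher and 2 lower, beside 15% higher and 6.02% lower over all genes tested. In the BxPC-3 labelled comparison the 3 medians were -0.0157, -0.0286 and 0.000579, with 0 genes of the lists higher and 3 lower at that p, beside 2.6% and 2.58% of all genes.

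Of the 4 genes shown singly, ENSG00000160182 had 41.7, 26.8 and 29.6 FPKM in AsPC-1 ATO replicates 1 to 3, against 43.5, 93.6 and 30.4 in the controls. ATO minus control was -0.62 on the log2 scale (SE 0.383) with a limma adjusted p of 0.349, and the groups overlapped. ENSG00000167779 had 9.97, 3.19 and 3.51 FPKM in the ATO libraries, against 11, 28.3 and 11.5 in the controls. The log2 difference of -1.47 (SE 0.453) had a limma adjusted p of 0.19, and the ATO libraries all lay below the controls. ENSG00000115602 had at most 9 reads in any AsPC-1 library and was not tested there. The AsPC-1 values do not include ENSG00000167656, so it could not be read in that line.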

How the data were processed

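The authors deposited 1 table per line whose values were read here as FPKM, since the header names no unit. Each column is 1 library. Total RNA went into a SMARTer mRNA library kit, per the labels' protocols. The submitters' processing notes name the builds GRCm38, mm10 and hg38 without a role. No source used here names the aligner, the counter or how mouse reads were handled.

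Nearly all FPKM values are a whole read number times a library constant over a whole length. Python 3.11.15 (numpy 2.4.6, pandas 2.3.3) recovered both, with lengths of at most 30000 bases. A value counted as whole if it lay within at most 0.05 reads of an integer, which held for 99.88% of the values of each table. In a check on made-up values for 3936 genes, 98.98% of lengths came out right. A space inside 1 number was removed.

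ATO was compared with control in limma 3.58.1 (R 4.3.3, trended eBayes, two-sided) on log2(FPKM + 1). Genes had to reach 1 FPKM in 3 libraries. This scale understates changes of low genes. Tested on simulated data in 10 draws, it recovered 15.3% of 2-fold and 79.3% of 4-fold changes in BxPC-3 (14614 to 14683 genes), and 13.8% and 86.2% in AsPC-1 (15145 to 15231 genes). The simulated libraries scattered around a common level with the same dispersion for every gene. They held no split like that of the BxPC-3 ATO libraries, so the shares do not tell what the BxPC-3 fit could detect. Voom took the recovered reads with median-ratio size factors. Cell cycle identifiers came from scran 1.30.0, keeping markers of 1 phase only.

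The libraries, the gap rule and the lists were chosen with earlier results of these data known. Genes shown singly are the 2 with the largest gap per direction at a mean of at least 5 FPKM. The planned rule needed gene symbols, so its other genes and all lists by symbol, cell type markers included, were not analysed here.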

Additional observations from a re-analysis of the deposited data

How the results depend on the processing

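Of 72 alternative values, 47 stayed within 1.5 times the reported count and 0 could reverse, as all are counts. The 8 higher and 68 lower genes with a gap of at least 1 numbered 2754 and 4275 with any gap. The lower genes numbered 255 with a pseudocount of 0.1 and 42 with at least 5 FPKM in 3 libraries. Leaving out 1 of the 5 libraries gave 10 to 24 higher and 65 to 292 lower genes. Leaving out ATO replicate 3 gave 292 lower genes, ATO replicate 2 gave 151 and control replicate 2 gave 109. The higher genes numbered 24 without ATO replicate 2 or 3, and 14 without ATO replicate 1 or control replicate 1. In the S list quantile normalization gave 5 higher and 5 lower and the recovered reads 5 lower. In the G2M list both gave 11 higher, and the recovered reads 4 lower. These counts are with any gap, out of 25 S genes and 40 G2M genes. Of all genes 26.9% were then higher and 21.3% lower after quantile normalization, and 26.4% and 22.6% with the recovered reads. The labelled BxPC-3 count of 0 ranged from 0 to 6 over fits leaving out a library, with 6 without ATO replicate 1. In AsPC-1 the count of 0 became 77 when 5 FPKM were required, 19 with voom and 1 after quantile normalization, and 0 to 1 over fits leaving out a library, with 1 without ATO replicate 1. With a replicate block it was 1193, and 14 of the 49 genes lower in the BxPC-3 pair then passed, all 14 higher in AsPC-1 ATO, beside 666 higher and 267 lower of the 12436 genes tested in both lines. In BxPC-3 the block left the count at 0. There ATO replicate 3 had no same-numbered control, so that fit took its ATO difference from replicates 1 and 2 only. With so few libraries it could hardly call a gene, and its 0 carries little weight. Same-numbered libraries had deviations from their group means that correlated at 0.146 and 0.0591 (BxPC-3), and at 0.331, 0.2 and 0.0814 (AsPC-1). All lay above 0, and no source used here states a pairing. Because not every pair exceeded 0.1, the main fits treated the numbers as names only, which does not exclude a pairing. The count of 24 among those 49 genes, examined after the data were seen, was 16 of 30 with at least 5 FPKM (53.3%, beside 15.3% of all genes tested in both lines) and 13 to 24 over fits leaving out a library. The filter tests fewer genes. Leaving out a library cannot narrow a gap, which lies between the nearest libraries of the sides, and a smaller pseudocount widens gaps. Rises in the counts of genes apart under these settings thus follow in part from the definition. For the other changes the cause was not tested. Lists given by gene symbol were not run.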
